A study of Capsicum annuum with 6 samples.

Results

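Runs of neighbouring pepper genes that differed in the same direction between 2 accessions, the compact B010 and the loose B003, are described here for the first branch site. A run was taken as 3 or more genes that follow each other on a chromosome and that were all at least 4-fold higher in the same accession. There were 177 such genes in 50 runs, out of 24829 genes listed in the deposited values and 21281 genes that could be placed in order on the 12 chromosomes. The members were chosen by the ratio L, the log2 ratio of the mean level in B010 to the mean level in B003, with a limit of 2 in either direction. Levels are CPM (counts per gene and 1000000 library counts), and 0.5 CPM was added to both means before the ratio was taken. Every value of the contrast between the accessions in these genes is therefore a description of how they were chosen, and no test of that contrast is read from them.

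RNA was sequenced at the early flowering stage from the first fork of the pepper stem (Capsicum annuum). The compact accession B010 has a small branch angle and the loose accession B003 a large one, and the labels name no treatment. Each accession has 3 replicate libraries, and the tissue of 8 plants was pooled for each library. With 1 accession of each form, the branch angle and every other difference between B010 and B003 cannot be told apart, and in bulk tissue fewer cells of a type and less RNA per cell cannot be told apart either.

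Plant genomes hold many arrays of tandem copies, in which a gene and its duplicates lie side by side and often keep similar length and sequence. Neighbouring genes may also share regulatory elements or lie in a common stretch of chromatin, and accessions of a crop differ in which copies they carry. Reads from an accession that differs from the reference genome, or from copies that resemble each other, can be lost or divided between genes when they are aligned. The cv.59 identifiers give the chromosome and the order of the genes, but the deposited values pair them with no gene name, so no role is given for any member. For the same reason the tissue could not be checked against marker genes.

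Of the 21562 genes with a chromosome identifier, 281 were detected in one accession only, with 10 or more counts in all libraries of one accession and 3 or fewer in all libraries of the other, and were taken out before the runs were found. The search then gave 185 genes in 52 runs. The stretches Capann_59Chr04g008940 to Capann_59Chr04g010940 and Capann_59Chr07g000010 to Capann_59Chr07g002410, were left out with 4 genes each, which removed 2 whole runs and shortened none to fewer than 3 genes. None of the genes in the pathway displays of the study fell in a run, with 0 removed. The identifiers of those genes were read from the picture of the figure, so a misread one would have gone unseen. A further 3169 loci without a cv.59 identifier and 98 genes on unplaced scaffolds have no place in the order and could not enter a run.

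Among all 21281 ordered genes, 1057 had an L of at least 2, or 4.97%, and 862 had an L of -2 or less, or 4.05%. The runs held 124 of the former in 35 runs and 53 of the latter in 15 runs. These are 11.7% of the genes past the limit on the B010 side and 6.15% of those on the B003 side. Genes higher in B010 thus made up 70.1% of the members and 55.1% of all genes past the limit. Most runs were short, since 35 had 3 genes, 11 had 4 genes and 1 had 5 genes, while 2 runs had 7 genes and 1 had 9.

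**Figure D1:**
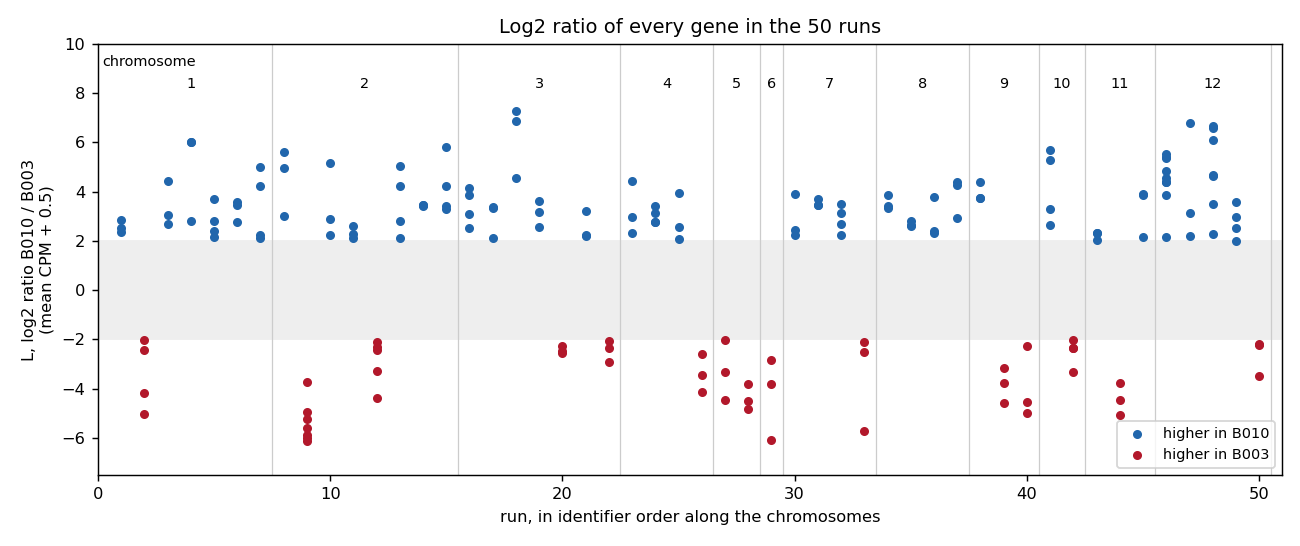
Each point is the ratio L of a member (vertical axis, log2 of B010 over B003 from mean CPM + 0.5) and each position on the horizontal axis is 1 of the 50 runs in identifier order, with chromosomes divided by grey lines and the excluded band between -2 and 2 shaded. The 35 runs higher in B010 (blue) reach 7.27 and the 15 runs higher in B003 (red) reach -6.13.

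In the members higher in B010, L lay between 2.01 and 7.27 with a median of 3.36. In those higher in B003 it lay between -6.13 and -2.01 with a median of -3.45. The members nearest inside the limit were Capann_59Chr12g033000 with an L of 2.01 and Capann_59Chr11g001330 with 2.05 on the B010 side. On the B003 side they were Capann_59Chr10g028280 with -2.01 and Capann_59Chr05g000250 with -2.03. The genes next to a run that came nearest to the limit from outside were Capann_59Chr04g030080 with 1.93, Capann_59Chr11g001370 with 1.91, Capann_59Chr05g000150 with -1.89 and Capann_59Chr01g004240 with -1.82. The limit therefore cut through a continuous range of values.

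By FPKM, a level that allows for exon length and library size, the mean of the higher accession ran from 0.544 to 657 in the members higher in B010, with a median of 20.9. In the members higher in B003 it ran from 2.70 to 2319 with a median of 33.7. In the lower accession the mean was under 1 CPM in 56 of the 124 members higher in B010 and in 23 of the 53 higher in B003, so for these genes L rests in part on the added 0.5 CPM. Over all libraries the median FPKM was 11.95 for the members and 11.0 for all ordered genes.

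The libraries held between 29891192 and 47659515 counts, so that a count of 0 allows a level of up to 3 counts, or 0.0629 to 0.1004 CPM, for counting error only. A library of each accession stood apart from the other replicates of their accession. Across the ordered genes, which are not independent, the correlation of log2(CPM + 0.5) came to r = 0.982 between B010 replicates 1 and 2 and 0.948 and 0.913 between these and B010 replicate 3. It was 0.982 between B003 replicates 2 and 3 and 0.934 and 0.927 between these and B003 replicate 1. Among pairs from different accessions it was between 0.748 and 0.889, and B010 replicate 3 with B003 replicate 1 gave the highest value.

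The same libraries stood out in the members. Summed over the 124 members higher in B010, the level was 14860, 20155 and 5293 CPM in B010 replicates 1, 2 and 3, and 1826, 1348 and 791 CPM in B003 replicates 1, 2 and 3. Over the 53 members higher in B003 the sum was 1052, 783 and 1665 CPM in the B010 replicates and 4158, 12723 and 14274 CPM in the B003 replicates. In both sums B010 replicate 3 was the B010 library nearest to B003, and B003 replicate 1 the B003 library nearest to B010, and the accessions did not overlap. All members together took 1.59%, 2.09% and 0.696% of the counts in the B010 replicates and 0.598%, 1.41% and 1.51% in the B003 replicates.

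Within B010, replicate 3 was the lowest library in 106 of the 124 members higher in B010, or 85.5%, against 23.6% of all ordered genes. Its median log2 ratio to the mean of the other B010 libraries was -1.86 in these members and 0.20 in all ordered genes. In the 53 members higher in B003 the same median was 0.66, so that B010 replicate 3 was shifted toward B003 in both kinds of run. Within B003, replicate 1 was the lowest library in 34 of the 53 members higher in B003, or 64.2%, against 31.9% of all ordered genes. The median log2 ratio of B003 replicate 1 to the other B003 libraries was -1.72 in these members and 0.12 in all ordered genes, while in the members higher in B010 it was 0.14. CPM takes no account of library composition. The TMM scaling factors were 0.996, 0.923 and 1.12 in B010 replicates 1, 2 and 3, and 1.06, 0.951 and 0.961 in those of B003. The medians and shares over all ordered genes therefore depend in part on this scaling. The shift was not particular to runs. Among ordered genes past the limit in the other 5 libraries, in runs or not, 43.6% were past it in B010 replicate 3. In B003 replicate 1 it was 55.1%, and these were the lowest shares of any library. Whether tissue sampling, the plants pooled or the library preparation differed in these libraries was not tested.

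**Figure D2:**
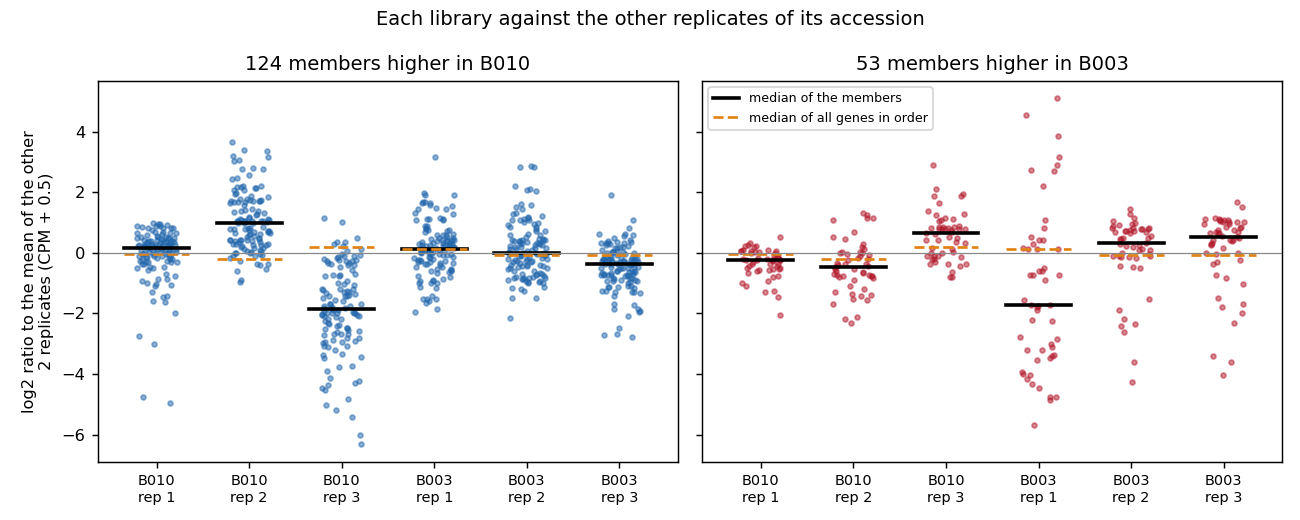
Points are members and give the log2 ratio of a library to the mean of the other 2 replicates of its accession, after adding 0.5 CPM, with the members higher in B010 on the left and those higher in B003 on the right. Black bars are medians of the members and dashed orange bars medians of all ordered genes, and the members higher in B010 had a median of -1.86 in B010 replicate 3 and those higher in B003 a median of -1.72 in B003 replicate 1.

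The replicates spread more widely in the members than in other genes. The median SD of log2(CPM + 0.5) over the 3 libraries was 0.81 in B010 and 0.63 in B003 for the members, and 0.25 in both accessions for all ordered genes. In the 1742 genes past the limit that are in no run, it was 0.61 in B010 and 0.50 in B003. On this log scale the median SD was larger in the accession with the higher level. In the lower accession the mean was under 1 CPM in 56 of the 124 members higher in B010 and 23 of the 53 higher in B003. There the added 0.5 CPM narrows the SD, so the difference between the accessions is partly set by the measure. In the members higher in B010 the median SD was 1.16 in B010 and 0.47 in B003, and in those higher in B003 it was 0.49 in B010 and 1.58 in B003. In 60 and 29 members of these groups, respectively, the highest replicate of the higher accession was over 5 times the lowest.

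The accessions were separated, with no overlap of their libraries, in 157 members and overlapped in 20, 13 of them higher in B010 and 7 higher in B003. Among all ordered genes, 48.9% had libraries that did not overlap, in either direction. Every member was separated in 37 of the runs. In the fit across all genes (edgeR's quasi-likelihood test, Benjamini-Hochberg adjusted p of at most 0.05, with an absolute log2 fold change from 1 up), 172 members passed the filter on low counts. Of these, 103 were called higher in B010, where 12.5% of all tested genes were, and 44 were called higher in B003, where 12.8% were. Since the same contrast chose the members, nothing is read from these counts. All members were called in 36 runs and none in 6 runs.

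The longest run held 9 genes that follow each other without a gap, Capann_59Chr12g001950 to Capann_59Chr12g002030, all higher in B010 with a median L of 4.56. Its most abundant member, Capann_59Chr12g001950, had 317, 567 and 114 CPM in B010 and 27.0, 24.4 and 15.2 CPM in B003 (332 ± 227 against 22.2 ± 6.21, SD, n = 3 each). The least abundant, Capann_59Chr12g001970, had 28.1, 54.6 and 5.51 CPM in B010 and 0.568, 1.94 and 0.219 CPM in B003. B010 replicate 2 was the highest and B010 replicate 3 the lowest B010 library in all 9 genes. The accessions overlapped only in Capann_59Chr12g002000, with 17.6, 57.3 and 7.16 CPM in B010 and 5.63, 8.70 and 2.72 CPM in B003. This gene also had the smallest ratio of the run, 2.17, and was the single member of the 9 that was not called.

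Chromosome 12 also held a run of 7 genes higher in B010, Capann_59Chr12g029170 to Capann_59Chr12g029280, with a median L of 4.68. Capann_59Chr12g029250 had 42.7, 255 and 4.82 CPM in B010 and 1.24, 0.0615 and 0.188 CPM in B003. Capann_59Chr12g029220, at the low end, had 2.45, 5.99 and 0.693 CPM in B010 and 0.135, 0.369 and 0.156 CPM in B003. In the median member of this run, B010 replicate 2 alone held 80.7% of the summed B010 level, so the mean of B010 rested mostly on 1 library. A single gene separated it from the run Capann_59Chr12g028880 to Capann_59Chr12g029050, which was higher in B010 as well. Capann_59Chr12g028880 had 96.6, 117 and 10.1 CPM in B010 and 0.216, 0.154 and 0.188 CPM in B003, the third largest L among the members at 6.77.

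Of the 4-gene runs higher in B010, Capann_59Chr10g003040 to Capann_59Chr10g003130 had the largest median L, 4.29. Capann_59Chr10g003080 had 154, 141 and 77.1 CPM in B010 and 3.22, 1.41 and 1.03 CPM in B003. Capann_59Chr10g003070 had 4.39, 5.42 and 1.52 CPM in B010 and 0.216, 0.338 and 0 CPM in B003. The lowest B010 library stayed above the highest B003 library in all 4 genes, and replicate 3 was again the lowest of B010 in each.

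Among the runs higher in B003, the longest was Capann_59Chr02g016990 to Capann_59Chr02g017080, with 7 genes and a median L of -5.61. Capann_59Chr02g017080 had 47.8, 47.4 and 115 CPM in B010 and 128, 1222 and 1436 CPM in B003. The lowest member, Capann_59Chr02g017040, had 0.986, 1.14 and 3.57 CPM in B010 and 3.62, 208 and 216 CPM in B003. In all 7 genes B003 replicate 1 was far below the other B003 libraries, and in Capann_59Chr02g017000 it lay under B010 replicate 3, with 11.1 and 16 CPM. The run also held members with some of the lowest values of L, -6.13 in Capann_59Chr02g017010 and -5.99 in Capann_59Chr02g017020. The former had 5.25, 4.78 and 11.1 CPM in B010 and 28.4, 733 and 818 CPM in B003.

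The 5-gene run Capann_59Chr02g030490 to Capann_59Chr02g030540 held the 3 most abundant members higher in B003. Capann_59Chr02g030540 had 311, 223 and 485 CPM in B010 and 659, 2072 and 2281 CPM in B003 (339 ± 134 against 1671 ± 882, SD, n = 3 each). Capann_59Chr02g030530 reached 1960 and 2060 CPM and Capann_59Chr02g030500 1393 and 1597 CPM in B003 replicates 2 and 3, against at most 500 and 83.0 CPM in B010. In B003 replicate 1 the same genes had 611 and 433 CPM. The accessions were separated in all 5 genes, although B003 replicate 1 was the lowest of B003 in each. The least abundant member was Capann_59Chr02g030490, with 0.588, 0.301 and 3.00 CPM in B010 and 4.57, 23.8 and 22.6 CPM in B003.

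The run Capann_59Chr01g004200 to Capann_59Chr01g004230 rested on a single library. Capann_59Chr01g004230 had 12.7, 28.1 and 13.1 CPM in B010 and 200, 16.8 and 9.69 CPM in B003, and without B003 replicate 1 its L was 0.43, in the opposite direction. Capann_59Chr01g004210 had 0.357, 2.14 and 1.02 CPM in B010 and 83.7, 3.10 and 3.13 CPM in B003. Capann_59Chr01g004200 had 0.252, 1.64 and 0.561 CPM in B010 and 121, 2.74 and 3.34 CPM in B003, and was among the members whose replicates varied most. B003 replicate 1 held 90.7% of the summed B003 level in the median member, and 0 of the 4 genes were called. This is the reverse of the pattern in most runs higher in B003, where the same library was the lowest. The next run, Capann_59Chr01g004250 to Capann_59Chr01g004270, began 1 gene further on and was higher in B010, the closest pair of runs with opposite directions. The gene between them was Capann_59Chr01g004240, with 0.776, 1.04 and 0.132 CPM in B010 and 10.3, 0.0615 and 0.344 CPM in B003, so that here too B003 replicate 1 stood alone.

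**Figure D3:**
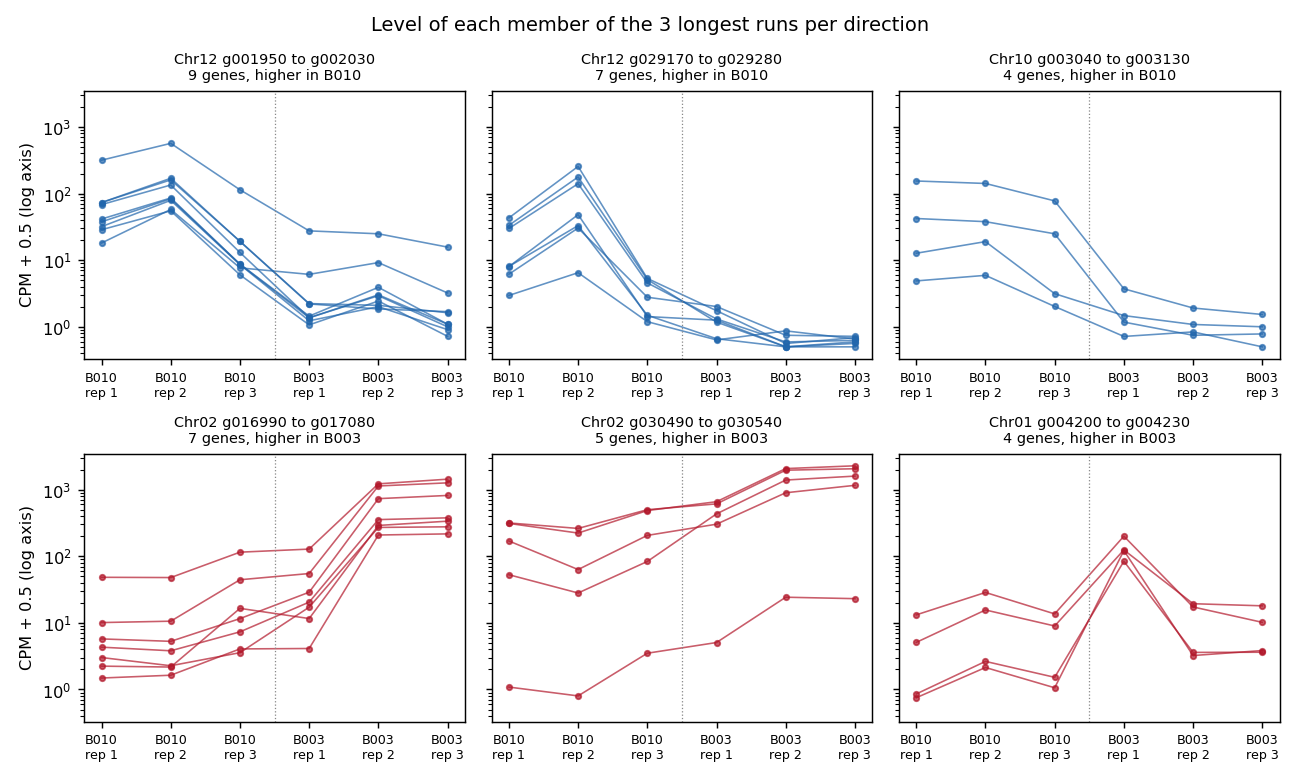
Each line is a member of 1 of the 3 longest runs per direction, with CPM + 0.5 on a log axis in the 3 B010 and the 3 B003 libraries, blue for runs higher in B010 and red for runs higher in B003. B010 replicate 3 is the lowest B010 library in the upper panels, and in the last panel B003 replicate 1 stands alone with up to 200 CPM.

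The most abundant members higher in B010 lay in runs of 3 and 4 genes. Capann_59Chr03g046420 had 1903, 2298 and 861 CPM in B010 and 359, 125 and 67.2 CPM in B003 (1687 ± 742 against 183 ± 154, SD, n = 3 each). Capann_59Chr02g034700 had 1376, 1369 and 551 CPM in B010 and 83.0, 67.4 and 22.9 CPM in B003. Capann_59Chr07g014020 had 1343, 1666 and 258 CPM in B010 and 64.8, 116 and 37.0 CPM in B003. The accessions did not overlap in any of them. Their neighbours in the run could be far lower, since Capann_59Chr07g014000 and Capann_59Chr07g014010 had mean levels in B010 that, per exon length, were up to 143-fold under that of Capann_59Chr07g014020. In the run of Capann_59Chr03g046420 the FPKM of B010 differed 145-fold between members.

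The largest L of any member was 7.27 in Capann_59Chr03g013950, with 93.3, 224 and 1.95 CPM in B010 and 0.0541, 0.522 and 0 CPM in B003. Its neighbour Capann_59Chr03g013970 had 142, 218 and 3.70 CPM in B010 and 0, 1.66 and 0 CPM in B003, an L of 6.85. Between them, Capann_59Chr03g013960 had 12.7, 30.04 and 0.0990 CPM in B010 and 0, 0.369 and 0 CPM in B003. All 3 genes were far lower in B010 replicate 3 than in the other B010 libraries, and in Capann_59Chr03g013960 that library lay below B003 replicate 2. Likewise, Capann_59Chr01g054690 had 24.8 and 54.5 CPM in B010 replicates 1 and 2, but 0 CPM in replicate 3, below its B003 levels of 0.189, 0.584 and 0.219 CPM. On the B003 side Capann_59Chr06g007020, with an L of -6.09, had 78.4, 40.4 and 33.2 CPM in B003 and 0.315, 0.435 and 0 CPM in B010, without a replicate that stood apart to this degree.

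Members were found on all 12 chromosomes, from 0.158% of the ordered genes of chromosome 6 to 1.67% of those of chromosome 12. Chromosome 2 had the most members, 32, and chromosome 12 had 26. The 12 members on chromosome 8 were all higher in B010, and the 6 on chromosome 5 and the 3 on chromosome 6 were all higher in B003. On the other 9 chromosomes runs of both directions occurred. All 4 runs of chromosome 8 had 3 genes. In the one with the largest median L, Capann_59Chr08g027460 to Capann_59Chr08g027500, B010 replicate 2 held 85.6% of the summed B010 level in the median member, and none of its genes was called. In the other runs the highest B010 library held 49.8% to 62.5%, and all 3 genes were called in 2 of them. There, Capann_59Chr08g027500 had 0.0839, 25.7 and 4.72 CPM in B010 and 0 CPM in all B003 libraries, and it did not pass the filter on low counts.

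Among the longest runs of the remaining chromosomes, where the larger median L decided between runs of equal length, values were of both kinds. Capann_59Chr03g010410 had 204, 261 and 88.0 CPM in B010 and 26.3, 22.8 and 14.4 CPM in B003, and Capann_59Chr04g030130 had 44.8, 35.3 and 33.9 CPM in B010 and 3.00, 5.59 and 6.72 CPM in B003. Both were separated between the accessions. Capann_59Chr07g021070 had 187, 177 and 11.7 CPM in B010 and 4.76, 29.8 and 7.47 CPM in B003, and all 4 genes of its run overlapped and none was called. On the B003 side, Capann_59Chr05g004740 had 41.1, 4.06 and 4.16 CPM in B003 and at most 0.105 CPM in B010. Capann_59Chr11g025700 had 0.514, 27.5 and 30.5 CPM in B003 and 0, 0.234 and 0.0660 CPM in B010, and Capann_59Chr06g007050 had 107, 75.1 and 44.5 CPM in B003 and 3.17, 8.56 and 3.14 CPM in B010. B003 replicate 1 was the highest B003 library in the runs of these genes on chromosomes 5 and 6 and the lowest in that on chromosome 11. It was also the lowest in the other run of chromosome 5, Capann_59Chr05g000250 to Capann_59Chr05g000270, where Capann_59Chr05g000260 had 7.68, 71.4 and 80.4 CPM in B003 and at most 1.99 CPM in B010.

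The run Capann_59Chr09g025680 to Capann_59Chr09g025700 held both patterns side by side. Capann_59Chr09g025700 had 29.3, 384 and 587 CPM in B003 and 13.8, 11.5 and 16.4 CPM in B010, and Capann_59Chr09g025690 had 8.03, 126 and 135 CPM in B003 and at most 2.39 CPM in B010. In contrast, Capann_59Chr09g025680 had 25.4, 4.95 and 5.13 CPM in B003 and 1.76, 1.30 and 3.04 CPM in B010. Here neighbours that shared the direction between accessions differed in opposite ways among the B003 replicates.

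Only 3 runs kept the limit in at least 3 neighbouring genes when the lowest library of the higher accession was set against the highest library of the other. Capann_59Chr09g001690, Capann_59Chr09g001700 and Capann_59Chr09g001710 had 8.44 ± 1.00, 14.2 ± 1.61 and 11.9 ± 0.565 CPM in B010 and 0.174 ± 0.0765, 0.594 ± 0.131 and 0.0952 ± 0.0656 CPM in B003 (SD, n = 3 each). Capann_59Chr04g032050 had 582, 493 and 537 CPM in B003 and 27.0, 24.0 and 39.2 CPM in B010, and its run ended with Capann_59Chr04g032080 at 7.14, 6.36 and 6.56 CPM in B003 and 0.567, 0.502 and 0.990 CPM in B010. The third was Capann_59Chr02g037200 to Capann_59Chr02g037220, where Capann_59Chr02g037200 had 657, 1016 and 107 CPM in B010 and 10.3, 14.5 and 5.38 CPM in B003. The last member of that run, Capann_59Chr02g037230, fell short, with 104 CPM in B010 replicate 3 and 31.8 CPM in B003 replicate 2. Together the 3 runs kept 9 genes, 6 of them on the B010 side and 3 on the B003 side. No other members formed a run of 3 genes by this stricter ratio.

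To describe the members in a library that had not chosen them, the rule was applied to 5 libraries and the genes it found were read in the sixth. Without B010 replicate 1, 153 of 166 genes so found were past the limit of 2 in that library against the mean of the other accession, and without B010 replicate 2 it was 118 of 126. For B003 replicates 2 and 3 it was 134 of 156 and 140 of 158. The shares lay between 85.9% and 93.7%. In B010 replicate 3, however, 110 of 200 genes, or 55.0%, were past the limit, and in B003 replicate 1 it was 126 of 185, or 68.1%. These shares were lower on the side where the left-out library belonged to the higher accession. In B010 replicate 3 it was 70 of 145 genes higher in B010, or 48.3%, and 40 of 55 higher in B003, or 72.7%. In B003 replicate 1 it was 18 of 50 genes higher in B003, or 36.0%, and 108 of 135 higher in B010, or 80.0%. The direction alone was kept in 186 of the 200 and 178 of the 185. For all ordered genes past the limit in 5 libraries, in runs or not, the shares were 90.1%, 88.2% and 43.6% in B010 replicates 1, 2 and 3 and 55.1%, 80.3% and 87.1% in B003 replicates 1, 2 and 3. In both sets B010 replicate 3 and B003 replicate 1 gave the lowest shares. These levels still share the mean of the other accession with the choice of the genes.

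Applied without both B010 replicate 3 and B003 replicate 1, the rule gave 223 genes in 63 runs, with 157 on the B010 side and 66 on the B003 side, and 153 of the 177 members were among them. With each library left out in turn, 15 runs with 53 members were found whole every time, 12 higher in B010 and 3 higher in B003. They included Capann_59Chr02g016990 to Capann_59Chr02g017080 and Capann_59Chr10g003040 to Capann_59Chr10g003130, but not the 9-gene run of chromosome 12. Counted by gene, 80 of the 177 members were found every time.

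The level of a gene can vary among replicates of an accession. Deviations from the accession means are not the contrast itself, but they are not independent of the choice of members. A library that is high in neighbouring genes raises the accession mean and can carry them past the limit together, as in Capann_59Chr01g004200 to Capann_59Chr01g004230. The correlations therefore describe the runs and are no separate support for them. For each pair of adjacent genes, the deviations of log2(CPM + 0.5) from the accession means were correlated over the 6 libraries, which leaves 4 free deviations and shared libraries for all pairs. The median r was 0.94 for the 127 pairs of neighbours in a run and 0.28 for the 21142 other neighbouring pairs. An r of 0.9 or more was seen in 61.4% and 9.31% of these pairs. Members of different runs with the same direction also varied together, with a median r of 0.60 over 8745 pairs, but less closely than neighbours. When B010 replicate 3 and B003 replicate 1 were left out, the median was 0.88 for neighbours in a run, while it was 0.25 for other neighbours and 0.23 for members of different runs. The share of pairs with an r of 0.9 or more was then 47.2% in runs and 19.4% in other neighbours, and the lower quartile in runs was 0.35, against 0.67 with all libraries. These values have 2 free deviations per pair in place of 4, and the contrast between neighbours in runs and other neighbours was smaller.

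**Figure D4:**
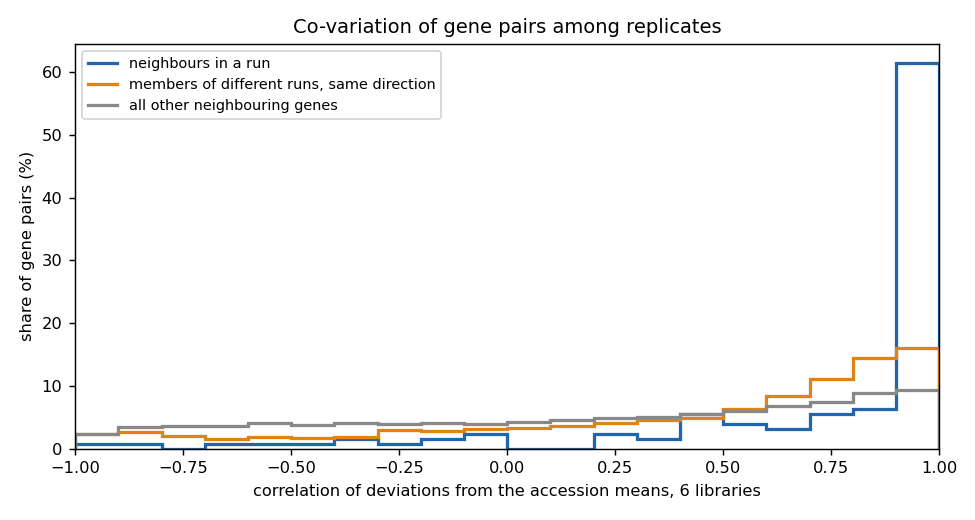
Histograms give the share of gene pairs (vertical axis, percent) by the correlation of their deviations from the accession means over 6 libraries (horizontal axis), for neighbours in a run, members of different runs with the same direction and all other neighbouring genes. The bin from 0.9 to 1 holds 61.4% of the neighbours in a run and 9.31% of other neighbours.

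Runs differed in this respect. In 19 of the 50 runs every pair of members had an r of at least 0.9, and in 13 runs the median pair was under 0.5. The closest was Capann_59Chr02g034900 to Capann_59Chr02g034940, a run singled out after its values were seen. Capann_59Chr02g034900 had 353, 435 and 67.9 CPM in B010 and 11.0, 60.5 and 5.03 CPM in B003. Across the 6 libraries Capann_59Chr02g034920 had between 45.3% and 49.0% of the counts of Capann_59Chr02g034900, and Capann_59Chr02g034940 had between 90.1% and 96.0%. The lowest pair correlation of the run was 1.00 after rounding, and its genes had the same exon length within rounding, a ratio of 1.00. Counts of such genes are uncertain if they are near-identical copies, since the way in which reads that align to several places were counted is not given in the sources used here. At the other end was the run on chromosome 9 described above, with a lowest pair correlation of -0.93.

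The length of exons that the authors used can be read from the ratio of counts to FPKM, up to a factor that is common to all genes. This relative length varied little between the libraries, with a median coefficient of variation of 1.02% over the members. Its median was 0.814 in the members on a scale where the median ordered gene has 1. Neighbours in a run were closer in length than other neighbours, with a median ratio of the longer to the shorter gene of 1.097 against 1.77. The lengths were within 5% of each other in 48 of 127 pairs in runs, or 37.8%, and in 5.95% of the other pairs. In 12 runs all members had lengths within a ratio of 1.1, and in 17 runs the longest was at least 2 times the shortest. Lengths did not enter the rule, but the likeness held for only part of the pairs and runs. Pairs of the same run are not independent, and long runs give more pairs than short ones.

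**Figure D5:**
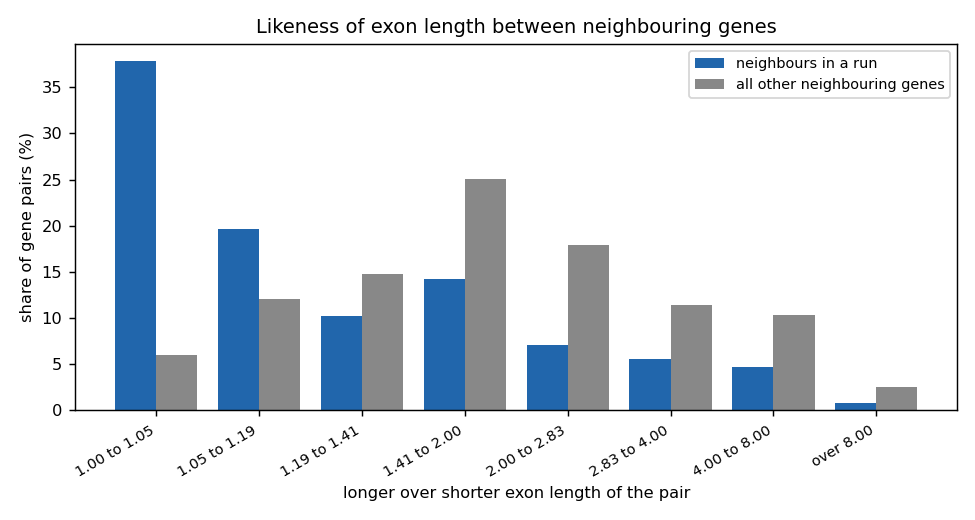
Bars give the share of neighbouring gene pairs (vertical axis, percent) by the ratio of the longer to the shorter exon length (horizontal axis), in blue for the 127 neighbours in a run and in grey for all other neighbouring genes. The leftmost class, of lengths within 5%, holds 37.8% of the pairs in runs and 5.95% of the others.

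The 9-gene run of chromosome 12 was an example, with 8 genes of relative length 0.81 to 0.84 and Capann_59Chr12g001950 at 3.39. The 7 genes of Capann_59Chr02g016990 to Capann_59Chr02g017080 lay within a ratio of 1.13 and those of Capann_59Chr01g004200 to Capann_59Chr01g004230 within 1.03. In contrast, the members of Capann_59Chr10g003040 to Capann_59Chr10g003130 differed by a ratio of 2.91. Pairs of like length also varied together more closely among replicates. The median r was 0.98 in the 48 pairs within 5%, 0.91 in the other 79 and 0.75 in the 23 pairs that differed at least 2-fold in length. Whether members of like length are copies of each other was not tested, as no sequence of these genes was used here.

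By identifier, the members often lay toward chromosome ends. Identifiers rise in steps of 10, and in 20 runs every identifier from the first to the last member was listed, whereas the run Capann_59Chr03g047580 to Capann_59Chr03g047790 spanned 22 identifiers with 3 listed genes. Of the 177 members, 74 lay within the outer 10% of identifiers at either end of a chromosome, or 41.8%, against 22.9% of all ordered genes and 22.6% of the 1742 genes past the limit that were in no run. Members of a run lie side by side and are not independent placements. Counted by run, 21 of the 50 reached into these outer parts. Identifiers give order and not distance, so no length in bases can be attached to these spans.

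Pooled over genes 2 to 10 places away from the runs, both directions were about equally frequent. Over all ordered genes, 4.97% were past the limit on the B010 side and 4.05% on the B003 side. Among 870 genes that lay 2 to 10 genes away from a run, 49 were past the limit in the direction of the run, or 5.63%, and 43 in the opposite direction, or 4.94%. The sign of L was that of the run in 49.3% of them. The nearest genes were excluded from these counts, because a gene next to a run that passed the limit in its direction would have been part of it. The direction of the run was the more frequent at 2, 3, 5 and 7 genes, with 8.42%, 5.26%, 9.38% and 7.22% against 4.21%, 2.11%, 2.08% and 3.09%. The opposite direction was the more frequent at 6, 9 and 10 genes, with 6.12%, 8.08% and 5.15% against 2.04%, 2.02% and 3.09%. At 4 and 8 genes the shares were equal. Each distance held 95 to 99 genes, of which only 2 to 9 were past the limit in each direction. No trend with distance is therefore read from these shares.

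Genes detected in one accession only had been removed before the runs were found, so their own ratio was not used to find a run. Their removal could still join the genes on either side, and with them kept 175 of the 177 members were found. Within the spans of the runs there were 3 of the removed genes. Capann_59Chr03g046510 had 506, 212 and 644 counts in B010 and 0 in each B003 library, in the direction of its run. Capann_59Chr05g004720 had 608, 10 and 51 counts in B003 and 0 in B010, again as its run, but Capann_59Chr02g030510 had 190, 169 and 150 counts in B010 and 0 in B003, although the 5 members around it were higher in B003. Those 5 members follow each other only with Capann_59Chr02g030510 taken out. A further 5 such genes lay directly next to a run, all in its direction. One was Capann_59Chr10g002990, with 56, 33 and 12 counts in B010 and 0 in B003. How often removed genes share the direction of other neighbours was not counted, so nothing is read from the shared direction here. In Capann_59Chr03g046510 the highest B010 library was replicate 3, in contrast to most members higher in B010.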

How the data were processed

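RNA-seq was analysed in 6 libraries of Capsicum annuum, 3 of B010 and 3 of B003, assigned by their titles and by the sample names in the header of the deposited table, with 0 sample columns unused. The authors filtered paired reads and aligned them with HISAT2 to the cv.59 genome, and StringTie is named in the processing notes. The counting program, its use of strand and its handling of reads with several alignments are not given in the sources used here. The deposited counts are raw reads per gene, and the deposited FPKM values are scaled by the authors to exon length and mapped reads. Columns with the authors' own log2 fold changes and p-values were not used.

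Runs were found in Python 3.11.15 from CPM with a pseudocount of 0.5. The members, the gene rule and the comparisons were chosen with earlier results of these data known. Named genes were the extremes of the 3 longest runs per direction, the most abundant, the most changed, the most variable and the borderline genes, the top gene of the longest run per chromosome, and adjacent runs of opposite direction. Others named after their values were seen are neighbours of these, genes detected in one accession only, and the runs on chromosomes 2, 4 and 9 given as examples. Counts were also tested with edgeR 4.0.16 in R 4.3.3 (expression filter, TMM, quasi-likelihood test, Benjamini-Hochberg over 24738 genes). The script was tested on simulated data. Alternatives covered the limit, pseudocount, run length, scaling, unit, average, filters, DESeq2 1.42.0, limma 3.58.1, the replicate block and the omission of each library. The replicates are pools of different plants, and p-values measure the spread between these pools.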

Additional observations from a re-analysis of the deposited data

How the results depend on the processing

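The number of members depends on the limits of the rule. With a limit on L of 1, 1.5 and 3 in place of 2 there were 821, 327 and 53 members (463, 233 and 37 higher in B010 and 358, 94 and 16 higher in B003) in 231, 90 and 15 runs. Runs of at least 2 genes gave 485 members (311 and 174) in 205 runs, and runs of at least 4 genes gave 72 (52 and 20) in 15. Setting the lowest library against the highest gave 9 (6 and 3) in 3. The pseudocounts, TMM scaling, FPKM, median CPM, a filter of 1 CPM and keeping genes detected in one accession only gave between 126 and 256 members. TMM-scaled CPM shared 176 of the 177 members, FPKM 144 and median CPM 154. With each library left out the rule gave 126 to 200 members, 87 to 145 higher in B010 and 39 to 55 higher in B003, in 37 to 57 runs.

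In place of the 147 members called by edgeR, 172 were called with the Wald test of DESeq2, where 29.3% of all genes were. With limma on log2(FPKM + 1) it was 137, where 19.3% of all genes were. With other factors or no filter it was 147 to 149, where 25.2% to 25.3% of all genes were. A log2 fold limit of 2 and no fold limit each gave 147, where 13.1% and 38.8% of all genes were called. The rule had already put the members past 2, so nothing is read from the unchanged 147. Without single libraries the count was between 85 and 161. It was 85 without B010 replicate 1, with 14.6% of all genes called, 88 without B003 replicate 3, with 16.6%, and 161 without B010 replicate 3, with 28.1%. The replicate number as a block gave 139 members and 5458 genes in all, or 22.1% of all genes. Same-numbered libraries of the accessions had correlations of their deviations of 0.00, 0.11 and 0.21, so 1 pair was under 0.1. B010 replicates 2 and 3 correlated best with their own number and replicate 1 with B003 replicate 2 (0.12). The numbers were therefore not taken as pairs.

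Over 44 named genes and 11 alternatives, 484 values of L included 467 that moved by less than the spread between replicates, 14 that moved further and 3 that changed sign. That spread was the gene's own, over both accessions, and is wide in genes with variable replicates. In Capann_59Chr01g004230, L went from -2.04 to -0.35 with median CPM and still counted among the 467. The 467 therefore do not show that L was stable. With single libraries left out, L was between -2.56 and 0.43 in Capann_59Chr01g004230 and between -2.34 and 0.71 in Capann_59Chr01g004240, in both cases with the positive value without B003 replicate 1. With median CPM it was 0.60 in Capann_59Chr01g004240. In both genes B003 replicate 1 was by far the highest B003 library. The co-variation of neighbours in runs had medians of 0.88 to 0.95 in the alternatives, which were added after seeing the data, as was the fit without both libraries that stood apart. For genes whose lower accession was under 1 CPM, the added 0.5 CPM limits how large a ratio can be read. In Capann_59Chr03g013950, L was 7.27 in the main setting, 8.51 with a pseudocount of 0.1 CPM and 6.49 with 1 CPM.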
